A study of Mus musculus with 24 samples.

Results

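Untreated macrophages grown from the bone marrow of mice labelled wild type or Tet2 knockout were compared across all measured genes, which gives the baseline that any response of these cells starts from. The comparison used 4 of the 24 samples of the series, 2 libraries of wild-type and 2 of labelled knockout bone marrow-derived macrophages (BMDM), which the submitters describe as biological replicates. All 4 came from C57BL/6 marrow, kept for 7 days in medium conditioned by L929 cells with added M-CSF, the growth factor that turns marrow progenitors into macrophages, and then held overnight in plain DMEM with serum and no cytokine. The deleted stretch of Tet2 is not given in the sources used here, nor is whether the deletion was inherited or induced, or the sex and age of the mice. Of 23309 gene models, 10510 reached 1 FPKM (fragments per kilobase of transcript, scaled to library size) in at least 2 of the 12 BMDM libraries of the series and were tested. The other 8 BMDM libraries, 2 of each genotype after 10 h and 2 after 24 h of interleukin 4 (IL4), shared the estimate of the spread. A further 8 libraries of tumour-associated macrophages (TAM), CD11b+F4/80+ cells from YUMM1.7 melanomas, 4 from Tet2 fl/fl mice with LysM-Cre (which is active in the myeloid lineage) and 4 from Tet2 fl/fl mice without Cre, are used only to set values beside the baseline.

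Tet2 encodes a dioxygenase that converts 5-methylcytosine, found in mammalian DNA mostly where a cytosine precedes a guanine (CpG), to 5-hydroxymethylcytosine and further oxidised bases. It acts beside its relatives Tet1 and Tet3, is among the genes most often mutated in clonal haematopoiesis, and in macrophages is known for restraining inflammatory cytokine genes, in part by recruiting histone deacetylases. RNA measured here reports the level of transcripts and neither methylation nor protein.

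The Tet2 transcript did not separate the genotypes. Its level was 4.11 and 5.91 FPKM in the wild-type libraries and 4.02 and 4.48 FPKM in the labelled knockout libraries, so the groups overlapped. On the log2(FPKM + 1) scale used for every difference below, labelled knockout minus wild type was -0.18 ± 0.13 (SE, n = 2 and 2, limma adjusted p = 0.576). Without wild-type replicate 1 the difference was -0.40 with an adjusted p of 0.0439, and without wild-type replicate 2 it was 0.04. A deletion of a few exons can leave most reads of a gene in place, and a value per gene cannot show it, so the groups are called by their labels. Tet3 lay at 2.58 and 5.07 FPKM in wild type and 2.67 and 2.84 in the labelled knockout (adjusted p = 0.518), and Tet1 was under 0.02 FPKM in all 4 libraries and was not tested.

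The macrophage identity of the 4 libraries was checked first. All 14 macrophage markers, among them Csf1r (the M-CSF receptor), Emr1 (F4/80), Cd68 and Lyz2, were tested and 0 passed, with 2 at an unadjusted p under 0.05, a median difference of -0.04 and a summed level of 18045 to 22982 FPKM in wild type and 18154 to 19044 in the labelled knockout. Under each of 3 other scalings 1 of the 14 was lower, and after quantile normalization and without small RNA genes 12 of the 14 lay below the wild type, with a median of -0.16. Wild-type replicate 2 stood apart from the other libraries, with a total of 365118 FPKM against 443727 to 445853 in the other untreated libraries. The 2 wild-type libraries differed by more than 0.5 on the log2 scale in 6.42% of tested genes, and the 2 labelled knockout libraries in 1.57%. Values without each library are therefore given beside the results that depend on 1 of them.

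With all libraries, 284 of 10510 tested genes (2.70%) passed an adjusted p under 0.05 in limma. Of these, 199 were higher in the labelled knockout (1.89% of tested genes) and 85 were lower (0.809%), with median differences of 0.73 and -0.73. At least 2-fold differences on this scale were seen for 48 of the higher and 16 of the lower genes. In all 284 the groups did not overlap, which was also true of 42.5% of all tested genes, and 1521 genes had an unadjusted p under 0.05. The median difference of all tested genes was 0.06, and with other scalings it moved to as little as -0.04, a shift of about 0.1. The share of higher genes among the calls was 70.1% as deposited, 62.7% after median-of-ratios scaling, 60.1% after quantile normalization and 56.0% after small RNA genes were removed and totals equalised. Each call was also sought in 4 fits that left out 1 untreated library. Without wild-type replicate 1 there were 1383 calls, without wild-type replicate 2 there were 132, and without labelled knockout replicates 1 and 2 there were 90 and 107. A core of 71 genes (0.676% of those tested), 48 higher and 23 lower, was called in the same direction with all libraries and in each of these 4 fits, and is called the 71-gene core below. In bulk RNA, fewer cells of a type and less RNA per cell cannot be told apart. Among the 199 higher genes, 59 were under 1 FPKM in both wild-type libraries, and among the 85 lower genes 18 were under 1 FPKM in both labelled knockout libraries, so such genes could enter the test only through the group in which they were high or through IL4-treated cells.

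**Figure D1:**
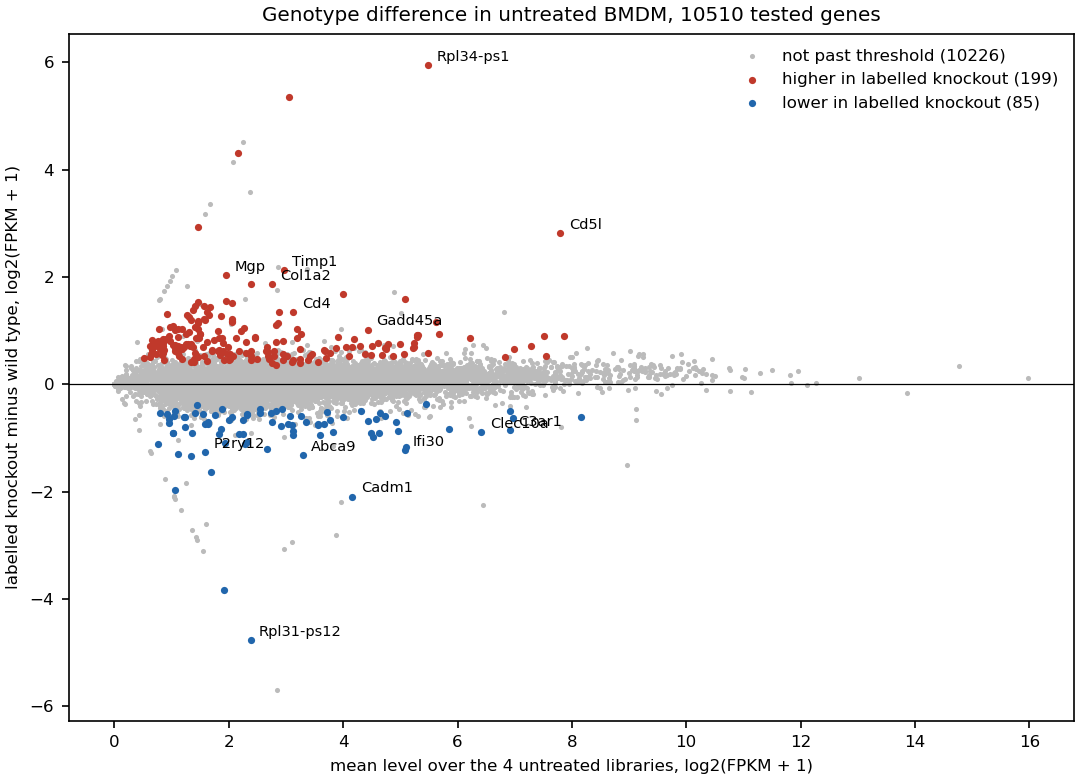
Each point is 1 of 10510 tested genes, with its mean level over the 4 untreated libraries on the horizontal axis and labelled knockout minus wild type on the vertical axis, both as log2(FPKM + 1). The 199 higher genes (red) and 85 lower genes (blue) lie mostly at low and middle levels, with Cd5l at the upper right of the higher genes and Cadm1 and Ifi30 among the lower genes.

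Proximal promoters of 4 genes are shown because these genes were among those that led the higher and the lower group and because the bases on which Tet2 acts, cytosines in CpG, can be read in them directly. Each is the 250 bases before the first listed RefSeq start of the gene, on the build GRCm38.p6 and written 5′ to 3′ on the gene's own strand, with every CpG in capitals. They are reference sequence, and methylation and hydroxymethylation of these bases were not analysed here.
Cd5l, higher, chr3:87357631-87357880, plus strand, 0 CpG: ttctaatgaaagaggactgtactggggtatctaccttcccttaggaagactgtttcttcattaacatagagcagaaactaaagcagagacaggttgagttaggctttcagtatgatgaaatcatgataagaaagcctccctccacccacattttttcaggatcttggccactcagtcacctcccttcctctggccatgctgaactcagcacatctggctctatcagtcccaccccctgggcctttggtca
Col1a2, higher, chr6:4505368-4505617, plus strand, 11 CpG: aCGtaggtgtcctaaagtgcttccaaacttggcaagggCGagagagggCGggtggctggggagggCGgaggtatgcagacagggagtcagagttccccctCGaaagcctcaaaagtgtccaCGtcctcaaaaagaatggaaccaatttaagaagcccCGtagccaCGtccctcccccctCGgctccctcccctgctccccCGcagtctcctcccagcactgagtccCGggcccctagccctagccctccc
Abca9, lower, chr11:110168154-110168403, minus strand, 2 CpG: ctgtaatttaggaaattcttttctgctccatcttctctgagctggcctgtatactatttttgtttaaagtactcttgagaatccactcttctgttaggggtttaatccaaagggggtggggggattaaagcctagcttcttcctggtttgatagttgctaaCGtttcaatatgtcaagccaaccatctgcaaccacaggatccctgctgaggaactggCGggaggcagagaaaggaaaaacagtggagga
Ifi30, lower, chr8:70766664-70766913, minus strand, 9 CpG: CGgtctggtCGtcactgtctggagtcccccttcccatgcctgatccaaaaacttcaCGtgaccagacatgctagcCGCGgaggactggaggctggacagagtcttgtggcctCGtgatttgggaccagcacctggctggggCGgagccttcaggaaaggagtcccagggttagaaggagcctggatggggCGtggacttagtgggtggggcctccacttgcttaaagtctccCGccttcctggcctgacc

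Such a window could be read for 8396 of the tested genes, with a median of 16 CpG. The median was 10 CpG in the 138 higher genes with a window and 11 in the 67 lower genes. At most 5 CpG were found in 12.9% of all these windows, in 27.5% of those of higher genes and in 41.8% of those of lower genes. The letters TATAAA, the core of a TATA box, occurred on either strand in 6.24% of all windows, 12.3% of those of higher genes and 11.9% of those of lower genes. These shares describe the windows, and promoters poor in CpG are known to be commoner in genes that only some cell types express.

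The most highly expressed gene with a large difference was Cd5l, which encodes a secreted scavenger protein of macrophages (also called AIM) and is a known target of the oxysterol receptor LXR. Its level was 101 and 67.8 FPKM in wild type and 608 and 576 FPKM in the labelled knockout. Both labelled knockout libraries were far above both wild-type libraries, with means 7.00-fold apart and a difference of 2.82 ± 0.17 (SE, n = 2 and 2, limma adjusted p = 1.27e-05). Nr1h3, which encodes LXR alpha itself, was 3.87 and 3.87 FPKM in wild type and 10.3 and 9.20 FPKM in the labelled knockout, a difference of 1.14 ± 0.15 (adjusted p = 0.00303). Both genes belong to the 71-gene core.

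The other LXR genes did not share this difference at the threshold. Of 17 tested members of a list of LXR receptors and targets, these 2 rose, 0 fell and 15 did not pass as deposited. The median was 0.11 against 0.06 for all tested genes. After median-of-ratios scaling 2 of the 17 were higher and 2 were lower. After quantile normalization, and likewise without small RNA genes, 2 were higher and 1 was lower. Abca1, the cholesterol exporter, was 69.5 and 74.1 FPKM in wild type and 55.6 and 59.7 in the labelled knockout (adjusted p = 0.148). Abcg1, a second exporter, was 26.6 and 25.5 FPKM against 27.2 and 27.4 (adjusted p = 0.834), and Apoe, the apolipoprotein, was 8681 and 7319 FPKM against 8761 and 8599 (adjusted p = 0.761). Apoc2, another apolipoprotein, had 102 and 94.4 FPKM in wild type and 63.5 and 51.0 in the labelled knockout (adjusted p = 0.0613).

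Genes of sterol synthesis and uptake, which the factor SREBP2 induces when cell cholesterol is low, lay on the higher side. Of 23 tested, 5 rose, 0 fell and 18 did not pass, with 21 above the wild type and a median of 0.32. Among the 5 were Idi1, Fdps, Cyp51 and Sc4mol, which are enzymes of the pathway. Fdps was 16.01 and 12.8 FPKM against 26.8 and 21.9 FPKM, a difference of 0.72 ± 0.14 (adjusted p = 0.0188). Idi1 was 4.603 and 4.581 FPKM against 8.30 and 6.92 FPKM, a difference of 0.62 ± 0.12 (adjusted p = 0.0177). In both genes the groups were apart, by less than 2-fold. Hmgcs1 was listed at 0 in all 4 libraries. This count depends on single libraries: it was 10 without wild-type replicate 1, 0 without wild-type replicate 2, 0 without labelled knockout replicate 1 and 2 without labelled knockout replicate 2, and 0 when only the 4 untreated libraries were fitted. Pparg, a fatty acid receptor of macrophages, was 18.5 and 21.8 FPKM in wild type and 31.0 and 28.8 in the labelled knockout (adjusted p = 0.0487), and in fits that left out 1 untreated library its adjusted p was as high as 0.378. It was the only call among 13 tested genes of PPAR gamma and lipid storage.

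**Figure D2:**
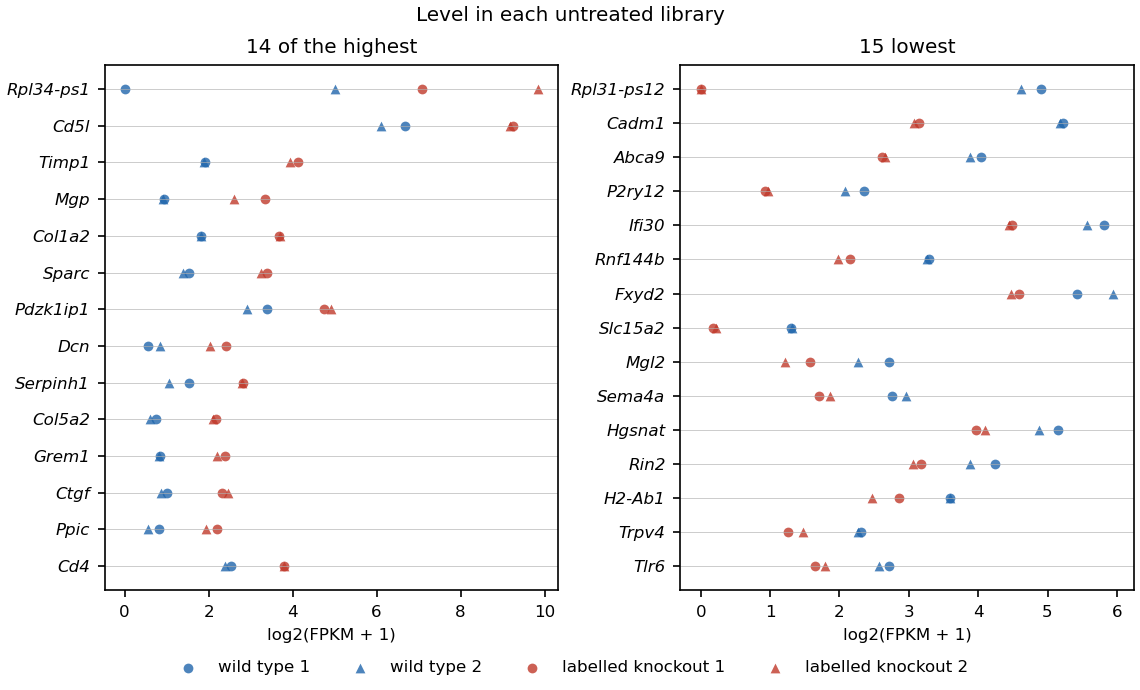
Level in each of the 4 untreated libraries, as log2(FPKM + 1), for 14 of the 15 genes with the highest and the 15 with the lowest difference among named calls whose groups did not overlap. Blue marks wild type and red the labelled knockout, with circles for replicate 1 and triangles for replicate 2. Replicates of most genes sit close together, and Rpl34-ps1 is spread widely within each group.

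Among the gene lists, which hold only part of the calls and were chosen with earlier results of these data known, those of extracellular matrix had the most higher genes. Among non-collagen matrix proteins and proteoglycans, 12 of 17 tested genes rose and 0 fell, with a median difference of 1.18, and 1 fell under each of 3 other scalings. Among collagens and the proteins that fold and cross-link them, 6 of 12 rose and 0 fell, with a median of 0.71. Among matrix proteases and their inhibitors, 6 of 14 rose and 0 fell, with a median of 0.40. For all tested genes the share of higher calls was 1.89% and the median 0.06. Of these 24 calls, 10 glycoproteins, 5 collagen genes and 3 proteases or inhibitors belong to the 71-gene core. Of the listed genes, 6 of 23 matrix proteins, 11 of 23 collagen genes and 4 of 18 proteases were too low to be tested. Some tested members, Mgp, Dcn and Col5a2 among them, were under 1 FPKM in every wild-type BMDM library. They were tested only through the labelled knockout, so the shares and medians of these lists are in part set by the filter. When each gene had to reach 1 FPKM in every library, no matrix protein or collagen gene was called and 2 proteases or inhibitors were, because most of these genes lie near 1 FPKM in wild-type cells.

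Col1a2, a chain of type I collagen, was 2.51 and 2.55 FPKM in wild type and 11.85 and 12.04 FPKM in the labelled knockout. The replicates were almost equal and the groups 4.72-fold apart, a difference of 1.87 ± 0.10 (adjusted p = 5.48e-06). Sparc, a collagen-binding matrix protein, was 1.89 and 1.61 FPKM against 9.52 and 8.55 FPKM, a difference of 1.87 ± 0.10 (adjusted p = 6.79e-06). Mgp, the matrix Gla protein that inhibits calcification, was 0.91 and 0.90 FPKM against 9.09 and 5.10 FPKM, a difference of 2.04 ± 0.20 (adjusted p = 0.000275). Timp1, an inhibitor of matrix metalloproteinases, was 2.80 and 2.68 FPKM against 16.4 and 14.3 FPKM, a difference of 2.13 ± 0.13 (adjusted p = 1.27e-05). In these 4 genes every labelled knockout library was more than 3-fold above every wild-type library.

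Other members had the same order of libraries at lower levels. Serpinh1, the collagen chaperone HSP47, was 1.90 and 1.09 FPKM in wild type and 6.11 and 5.99 FPKM in the labelled knockout. Lox, which cross-links collagen, was 0.92 and 0.97 FPKM against 3.51 and 3.58 FPKM, a difference of 1.23 ± 0.12 (adjusted p = 0.000245). Dcn (decorin), Postn (periostin), Fbln2, Tnc, Fstl1 and Igfbp7, and the matrix-associated YAP targets Ctgf and Cyr61, were 3.77-fold (Fbln2) to 5.98-fold (Dcn) higher in mean level, and all 8 belong to the 71-gene core. Grem1, a secreted antagonist of bone morphogenetic proteins, was 0.81 and 0.76 FPKM against 4.21 and 3.63 FPKM. It was under 1 FPKM in every wild-type BMDM library, so it was tested only through the labelled knockout. The 4 most abundant of the tested matrix proteins did not pass: Spp1 (osteopontin) was 514 and 464 FPKM against 613 and 574 (adjusted p = 0.342), Thbs1 (thrombospondin) was 44.5 and 45.02 against 45.7 and 42.3 (adjusted p = 0.940), Tgfbi was 20.1 and 16.6 against 13.1 and 12.3 (adjusted p = 0.0555), and Emilin1 was 13.3 and 9.84 against 10.99 and 11.05 (adjusted p = 0.938).

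Markers of fibroblasts and stromal cells moved with the matrix genes. All 14 were in the table. The 5 that could be tested, Col1a2, Dcn, Postn, Acta2 (smooth muscle actin) and Tagln (transgelin), were all higher and all in the 71-gene core, and the 9 that were too low to be tested all had a higher mean in the labelled knockout. Of the 5 tested, Dcn was 0.148 to 0.779 FPKM in the wild-type BMDM libraries, with or without IL4. It was therefore tested only through the labelled knockout, and its place among the higher genes was in part set by the filter. Acta2 was 0.90 and 1.14 FPKM in wild type and 3.81 and 4.04 FPKM in the labelled knockout. Col1a1 was 0.26 and 0.42 FPKM against 0.98 and 1.27 FPKM, and Col3a1 was 0.15 and 0.11 FPKM against 0.74 and 0.64 FPKM. Pdgfra and Pdgfrb, receptors typical of fibroblasts, stayed under 0.28 FPKM in every library, and Thy1 was at 0 in both wild-type libraries and at 0 and 0.029 FPKM in the labelled knockout. The summed level of the 14 markers was 7.74 to 7.88 FPKM in wild type and 31.5 to 32.8 FPKM in the labelled knockout. Their part in the higher matrix genes was not tested.

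Contractile and adhesion genes of the kind that mesenchymal cells share were also among the calls, chosen here after their values were seen. Cald1 (caldesmon) was 0.60 and 0.33 FPKM in wild type and 1.91 and 2.00 in the labelled knockout, and Cdh11, a cadherin of mesenchymal cells, was 0.52 and 0.50 FPKM against 2.41 and 1.80. Tpm1 (tropomyosin), at a higher level, was 18.6 and 14.98 FPKM against 29.3 and 27.1. Itgb3, an integrin subunit that macrophages and platelets also carry, was 1.13 and 0.92 FPKM against 2.90 and 2.90 FPKM, a difference of 0.95 ± 0.12 (adjusted p = 0.00239).

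**Figure D3:**
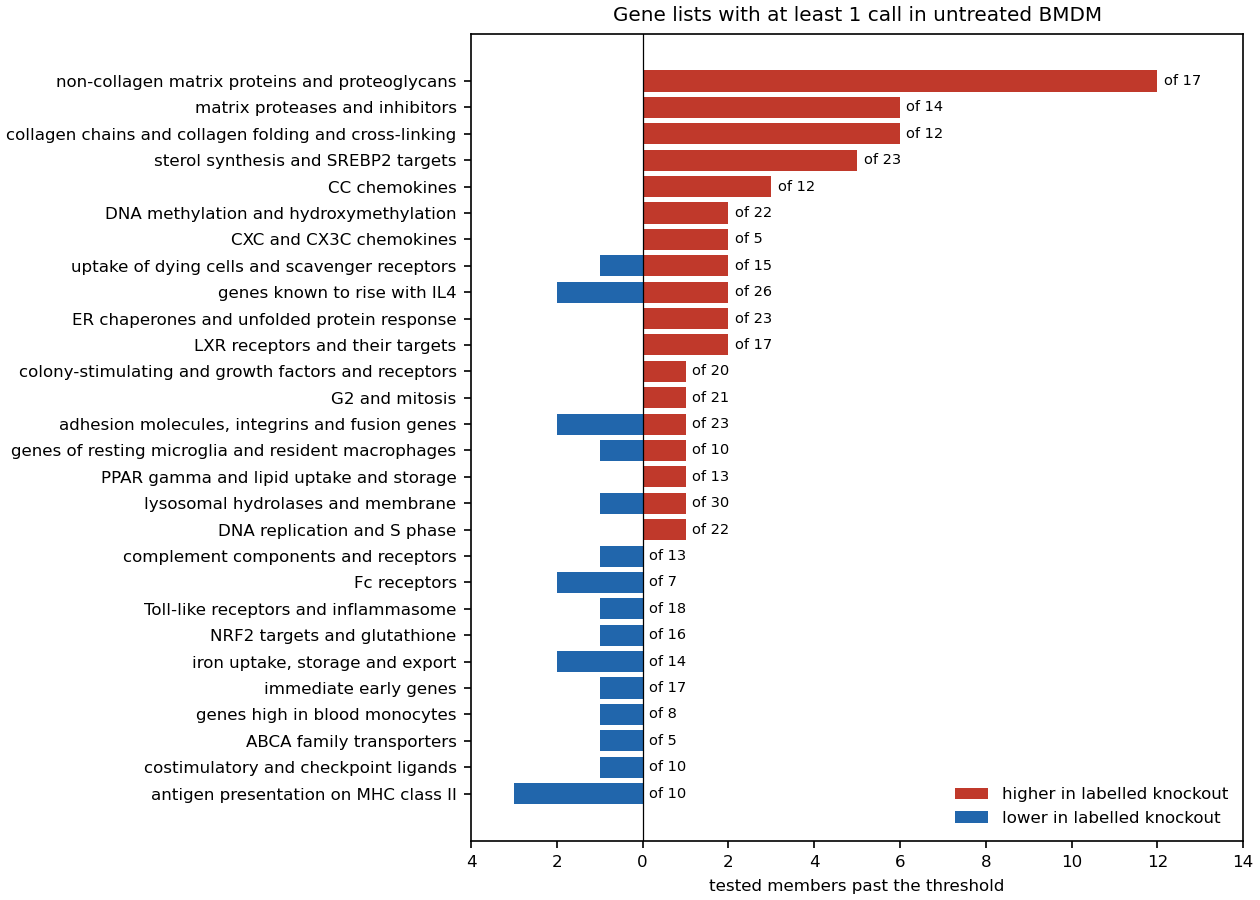
Number of tested members of each gene list past the threshold, with higher genes in red to the right of 0 and lower genes in blue to the left, and the number tested beside each bar. Matrix proteins (12 of 17), collagen genes (6 of 12) and matrix proteases (6 of 14) have the most higher calls, and antigen presentation on MHC class II (3 of 10) the most lower calls.

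Among lower genes, antigen presentation on MHC class II, by which macrophages show peptides to CD4 T cells, had the most calls of any list. Of all tested genes, 0.809% were called lower, 3846 of 10510 lay below the wild type and the median was 0.06. Of 10 tested members of this list 3 fell and 0 rose, with 8 below the wild type and a median of -0.49. The summed level of the list went the other way, 994 to 1231 FPKM in wild type and 1275 to 1493 in the labelled knockout, because Ctss (cathepsin S) makes up most of it, at 1087 and 867 FPKM against 1415 and 1206 (adjusted p = 0.227). Ifi30, a lysosomal thiol reductase that unfolds antigens for loading, was 55.0 and 46.7 FPKM in wild type and 21.3 and 20.7 FPKM in the labelled knockout. The means were 2.42-fold apart, with a difference of -1.23 ± 0.10 (adjusted p = 0.000126), and Ifi30 alone of the 3 belongs to the 71-gene core. Cd74, the invariant chain, was 32.9 and 32.5 FPKM against 17.9 and 15.9 FPKM, a difference of -0.91 ± 0.17 (adjusted p = 0.0182, and as high as 0.158 with 1 library left out). H2-Ab1, the class II beta chain, was 11.13 and 11.05 FPKM against 6.24 and 4.54 FPKM (adjusted p = 0.0457, and as high as 0.333). H2-Aa, at 13.6 and 13.98 FPKM against 8.87 and 6.72, and H2-Eb1, at 5.21 and 4.76 against 2.86 and 1.54, did not pass (adjusted p = 0.0721 and 0.0839), though in both genes the groups were apart. Ciita, the master activator of these genes, was under 0.46 FPKM in every library. Under each of the 3 other scalings 5 of the 10 were lower.

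Among named genes other than pseudogenes, Cadm1, a cell adhesion molecule of the immunoglobulin superfamily, had the lowest difference on the log2 scale. It was 36.5 and 35.3 FPKM in wild type and 7.88 and 7.44 FPKM in the labelled knockout, a 4.68-fold difference of means and -2.09 ± 0.11 on the log2 scale (adjusted p = 5.48e-06). Abca9, a lipid transporter of the ABCA family, was 15.4 and 13.7 FPKM against 5.11 and 5.33 FPKM, a difference of -1.32 ± 0.09 (adjusted p = 2.23e-05). P2ry12, the ADP receptor best known from resting microglia, was 4.10 and 3.22 FPKM against 0.89 and 0.97 FPKM, a difference of -1.27 ± 0.11 (adjusted p = 0.000195). Slc15a2, a peptide transporter, was 1.47 and 1.495 FPKM against 0.13 and 0.16 FPKM, which is 10.1-fold in means while the log2(FPKM + 1) difference, which shrinks low values, was -1.11 ± 0.10. In these 4 genes the replicates lay close together and far from the other group. P2ry12 and Slc15a2 were under 1 FPKM in every labelled knockout BMDM library, with or without IL4. They were therefore tested only through the wild type, and their place among the lower genes was in part set by the filter. Rnf144b, a ubiquitin ligase, was 8.83 and 8.59 FPKM against 3.46 and 2.94, Hgsnat, a lysosomal enzyme of heparan sulfate breakdown, 34.4 and 28.4 against 14.6 and 16.2, and Rin2, a regulator of RAB5, 17.8 and 13.7 against 8.04 and 7.31. All 7 belong to the 71-gene core.

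Single receptors that sense microbes, complement and antibody were lower. In 2 of their lists, 8 of 13 complement genes and 10 of 18 Toll-like receptor and inflammasome genes lay above the wild type as deposited. The medians were 0.08 and 0.06, against 0.06 for all tested genes. Under the 3 other scalings 4 to 7 of the 13 and 7 to 9 of the 18 lay above. The medians were then -0.05 to 0.02 and -0.05 to 0.01. C3ar1, the receptor for the complement fragment C3a, was 163 and 160 FPKM in wild type and 89.6 and 88.7 FPKM in the labelled knockout, a difference of -0.85 ± 0.11 (adjusted p = 0.00186). Tlr6, which pairs with TLR2 to detect lipopeptides, was 5.56 and 4.93 FPKM against 2.12 and 2.47 FPKM, a difference of -0.92 ± 0.11 (adjusted p = 0.00162). Both are in the 71-gene core, and each was the only call in its list, with 3 complement genes and 2 Toll-like receptor and inflammasome genes lower under each of the 3 other scalings. Of 7 tested Fc receptors, the inhibitory Fcgr2b (149 and 137 FPKM against 95.6 and 108) and Fcgr4 (42.2 and 33.4 against 26.6 and 19.4) fell, with adjusted p of 0.0487 and 0.0403, which reached 0.475 and 0.316 when 1 library was left out. Cd40, a costimulatory receptor, was 4.67 and 3.47 FPKM against 2.57 and 1.83 (adjusted p = 0.0382, and as high as 0.315).

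Some genes of surface lectins and of iron handling were also lower. Of 14 tested genes of iron uptake, storage and export, Slc11a1 and Cd163 fell, 0 rose and 12 did not pass. For all tested genes the share of lower calls was 0.809%. Clec10a and Mgl2, neighbouring genes for galactose-type lectins that mark alternatively activated macrophages, were 129 and 103 against 62.2 and 61.4 FPKM, and 5.55 and 3.82 against 1.97 and 1.32 FPKM, with differences of -0.89 ± 0.13 and -1.10 ± 0.17 (adjusted p = 0.00415 and 0.00624). With 1 library left out their adjusted p reached 0.0542 and 0.0724. The 2 genes are close paralogs, and how reads shared between them were assigned is not stated. Of 26 tested genes known to rise with IL4, these 2 fell, Pparg and Tgm2 (transglutaminase 2, 10.7 and 9.57 against 20.6 and 18.6 FPKM) rose, and 22 did not pass, with a median of -0.01. Under the 3 other scalings 1 of the 26 was higher and 3 to 4 were lower. Below the wild type lay 16 as deposited and 16 to 18 under those scalings. Slc11a1 (NRAMP1), which pumps metal out of the phagosome, was 83.8 and 68.3 FPKM in wild type and 43.1 and 41.4 in the labelled knockout, a difference of -0.83 ± 0.16 (adjusted p = 0.0225, and as high as 0.153). Cd163, the receptor for haemoglobin bound to haptoglobin, was 5.02 and 5.05 FPKM against 2.999 and 3.19 (adjusted p = 0.0137, and as high as 0.147).

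Among genes for uptake of dying cells, Axl, a receptor kinase that binds phosphatidylserine through Gas6, was higher. Its level was 3.59 and 4.09 FPKM in wild type and 9.87 and 8.92 FPKM in the labelled knockout, a difference of 1.10 ± 0.13 (adjusted p = 0.00138), and it is in the 71-gene core. Mertk, its relative, was 36.7 and 34.4 FPKM against 34.8 and 38.5 and its groups overlapped. Of the 15 tested genes of this list, Axl and Cd300lf rose, Cd163 fell and 12 did not pass.

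Secreted signals held higher calls among chemokines. Of 12 tested CC chemokines, Ccl4, Ccl7 and Ccl8 rose and 0 fell, and of 5 tested CXC and CX3C chemokines, Cxcl2 and Cxcl16 rose. Ccl4, which attracts monocytes and lymphocytes, was 41.2 and 31.5 FPKM in wild type and 69.3 and 70.9 FPKM in the labelled knockout, a difference of 0.94 ± 0.20 (adjusted p = 0.0346). Ccl8 was 13.4 and 11.7 FPKM against 26.1 and 21.2, a difference of 0.85 ± 0.12 (adjusted p = 0.00414). Cxcl2, an attractant of neutrophils, was 1.31 and 1.30 FPKM against 2.80 and 2.65, a difference of 0.69 ± 0.10 (adjusted p = 0.00496). None of the 5 belongs to the 71-gene core: with 1 library left out the adjusted p reached 0.262 for Ccl4, 0.201 for Ccl7, 0.346 for Cxcl16 and 0.0654 for Ccl8 and for Cxcl2. Csf1, which encodes the M-CSF on which these cultures depend, was 1.10 and 0.88 FPKM against 2.71 and 2.56 FPKM, a difference of 0.87 ± 0.11 (adjusted p = 0.00162), and is in the core.

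Inflammatory cytokines, the genes for which loss of Tet2 in macrophages is best known, did not pass in these untreated cells. Of 11 tested inflammatory and regulatory cytokines and enzymes, 0 passed in limma, where 2.70% of all tested genes did, and the median was -0.04. A count of 0 in a list this short is near that share. An unadjusted p under 0.05 was found for 4 of the 11 and for 1521 of 10510 tested genes. Tnf was 2.86 and 2.90 FPKM in wild type and 4.23 and 4.00 FPKM in the labelled knockout, with the groups apart (adjusted p = 0.0977). Il1b was 7.28 and 8.42 FPKM against 7.69 and 6.86 (adjusted p = 0.737), and Il6 was under 0.06 FPKM in all 4 libraries and was not tested. After 10 h of IL4, 4 of the 11 were called higher and 0 lower, and after 24 h 0 were higher and 2 lower. Of 40 interferon-stimulated genes 0 passed in untreated cells and 3 had an unadjusted p under 0.05. They lay above the wild type in 34 of 40 cases as deposited and in 28 to 32 under other scalings. Over all 10510 tested genes, 6664 lay above as deposited and 4112 to 5539 under those scalings. The labelled knockout libraries differed from each other: Ifit3 was 25.7 and 22.4 FPKM in wild type and 52.1 and 20.0 in the labelled knockout, and Oasl2 was 9.04 and 9.03 against 18.7 and 9.03. All 18 tested genes of MHC class I presentation lay above the wild type as deposited and 12 to 17 of them under other scalings, with 0 past the threshold and 1 at an unadjusted p under 0.05.

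The lists of DNA methylation and of the cell cycle held 1 or 2 higher calls each. Over all tested genes the share of higher calls was 1.89%. Of 22 tested genes of DNA methylation and hydroxymethylation, Gadd45a and Uhrf1 rose and 0 fell. Gadd45a, a stress-induced growth-arrest gene that has been linked to DNA demethylation, was 16.2 and 12.4 FPKM in wild type and 29.4 and 30.2 FPKM in the labelled knockout, a difference of 1.02 ± 0.14 (adjusted p = 0.00306), and is in the 71-gene core. Uhrf1, which brings maintenance methylation to replicating DNA, was 0.50 and 0.45 FPKM against 1.12 and 1.21 (adjusted p = 0.00750, and as high as 0.0856). Dnmt1 was 15.7 and 14.7 FPKM against 18.1 and 17.8 (adjusted p = 0.273), and Dnmt3a was 10.3 and 10.4 against 13.3 and 13.2 (adjusted p = 0.140). Uhrf1 was also the only call among 22 tested S-phase genes, and Prc1 the only call among 21 tested genes of G2 and mitosis, with medians of 0.14 and 0.24. The median of all tested genes was 0.06. In these 2 lists 18 of 22 and 18 of 21 lay above the wild type, where 6664 of 10510 tested genes did. An unadjusted p under 0.05 in limma was found for 8 and 9 of them, and for 1521 of all tested genes. After quantile normalization, and without small RNA genes, 0 genes of G2 and mitosis were called.

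Calls in the remaining lists are set beside shares of 1.89% higher and 0.809% lower over all tested genes. Of 23 tested chaperones and unfolded protein response genes, Calr (calreticulin) and Asns (asparagine synthetase) rose and 22 of 23 lay above the wild type, or 17 to 21 under other scalings, with a median of 0.22. Over all 10510 tested genes, 6664 lay above as deposited and 4112 to 5539 under those scalings, and the median as deposited was 0.06. Of 30 lysosomal genes, Ctsk rose and Ifi30 fell as deposited, while under the 3 other scalings 0 were higher and 1 to 3 lower. Of 23 adhesion and fusion genes, Itgb3 rose and Cadm1 and Itga6 fell. P2ry14 rose beside the fall of P2ry12 among 10 tested genes of resting microglia and resident macrophages, of which 0 were higher without small RNA genes. F13a1 fell among 8 monocyte genes, Klf2 among 17 immediate early genes and Gclm among 16 NRF2 targets. No gene passed among 8 chemokine receptors, 13 NF-kB genes, 18 p53 and apoptosis genes, 23 glycolysis and hypoxia genes, 19 genes of the citric acid cycle, 20 of fatty acid oxidation and 23 replication-dependent histones, where 3, 3, 5, 9, 2, 2 and 3 genes in turn had an unadjusted p under 0.05. This holds for the values as deposited: under the 3 other scalings 1 glycolysis and hypoxia gene was higher and 2 to 4 were lower, and 1 gene of fatty acid oxidation was lower after median-of-ratios scaling and without small RNA genes.

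Most markers of lymphocytes, mast cells and red cells were low or at 0, and some markers of other cells were not. Of 10 T and NK cell markers only Cd4 was tested, and it was 4.77 and 4.21 FPKM in wild type and 12.97 and 12.99 FPKM in the labelled knockout, a difference of 1.35 ± 0.09 (adjusted p = 3.01e-05). The other 9, Cd3e, Cd3g and Lck among them, were under 0.12 FPKM in every library. Of 9 B and plasma cell markers only Cd79b was tested, at 1.40 and 0.42 FPKM in wild type and 2.99 and 2.72 in the labelled knockout (adjusted p = 0.0188, and as high as 0.158), while Blk and Vpreb1 were at 0 in all 4 libraries. All 10 mast cell, basophil and eosinophil markers were too low to be tested, haemoglobin genes were listed at 0, and the 8 tested neutrophil markers had 0 calls, with none at an unadjusted p under 0.05. Vwf, on the list of megakaryocyte markers, was 1.69 and 1.55 FPKM against 3.07 and 3.14 (adjusted p = 0.0136, and as high as 0.105), while Itga2b was under 0.11 FPKM. Pf4, a platelet chemokine that macrophages are also known to express, was 236 and 159 FPKM against 212 and 271 and carried most of that list, whose sum was 162 to 240 FPKM in wild type and 217 to 275 in the labelled knockout. Neutrophil markers summed to 102 to 139 FPKM and 128 to 141 FPKM, mostly S100a8 and S100a9. Adipocyte markers summed to 117 to 145 FPKM and 140.4 to 145 FPKM, nearly all of it Fabp4 and Cebpa, while Plin1 and Adipoq were under 0.05 FPKM.

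The same differences were looked for in IL4-treated cells of the same genotypes, which share no library with the untreated comparison. Of the 199 genes higher in untreated cells, 188 (94.5%) were also higher after 10 h of IL4, where 53.6% of all tested genes were, and 172 (86.4%) after 24 h, where 57.0% were. Of the 85 lower genes, 82 (96.5%) were lower at 10 h and 79 (92.9%) at 24 h, where 46.3% and 42.8% of all tested genes were. These shares depend on wild-type replicate 1: among the genes called without it, 78.9% of higher and 70.7% of lower genes had the same direction at 10 h, and 66.3% and 28.5% did at 24 h. Calls were made for 2.84% of tested genes at 10 h (1.75% higher, 1.09% lower) and 7.43% at 24 h (5.29% higher, 2.14% lower). At 10 h 108 of the 199 and 54 of the 85 passed in the same direction and 0 and 2 in the opposite one. At 24 h 69 and 38 passed in the same direction and 2 and 0 in the opposite one. At all 3 times 62 genes were called higher and 34 lower.

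**Figure D4:**
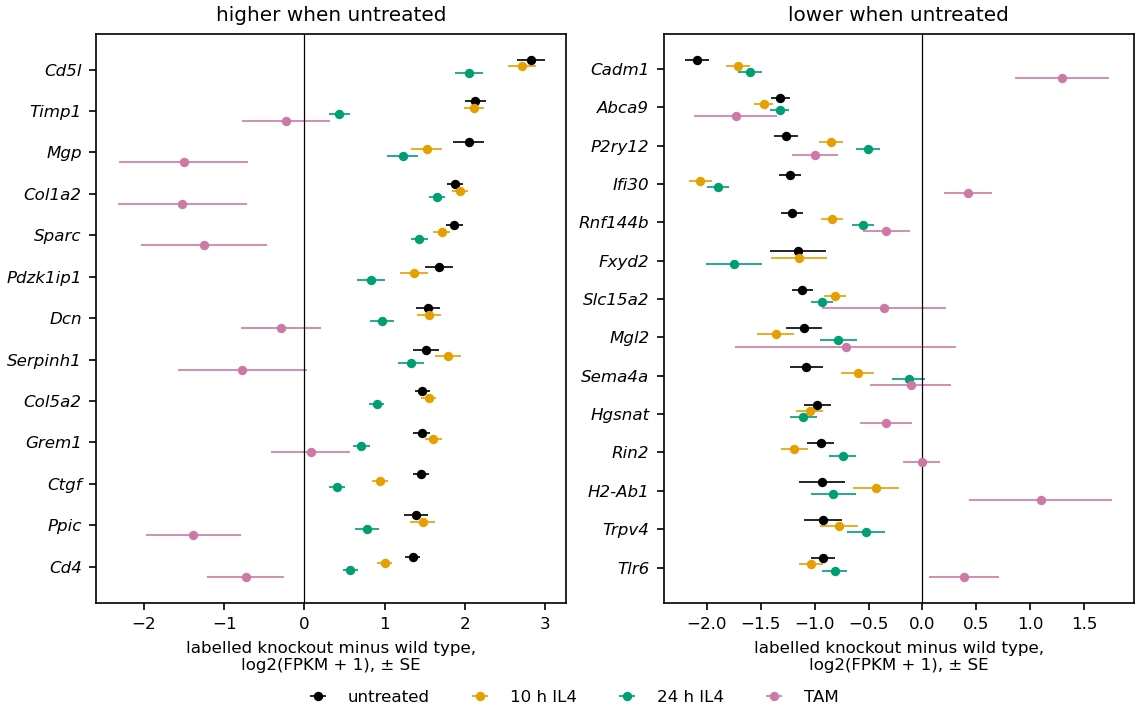
Labelled knockout minus wild type on the log2(FPKM + 1) scale with its SE, for named genes among those with the highest (left) and lowest (right) difference in untreated cells, pseudogenes left out. Black is untreated, orange and green are 10 and 24 h of IL4, and purple is TAM where the gene was tested. The BMDM points lie on the same side of 0 at all 3 times, while the TAM points of the matrix genes Col1a2, Sparc and Mgp lie below 0, by -1.52, -1.25 and -1.51 with all TAM libraries and by -0.60, -0.35 and -0.59 without wild-type TAM replicate 8.

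Cd5l remained far apart, at 43.9 and 34.3 FPKM in wild type and 255 and 266 in the labelled knockout after 10 h, and at 43.6 and 47.7 against 194 and 190 after 24 h. Ifi30 was 116 and 116 FPKM against 27.7 and 26.5 after 10 h, and 190 and 194 against 47.6 and 53.9 after 24 h. Its difference was -2.06 and -1.90 at these times beside -1.23 in untreated cells. Cadm1 was 17.5 and 18.1 FPKM against 4.13 and 5.40 after 10 h, and 28.5 and 25.6 against 8.16 and 8.34 after 24 h. Timp1, by contrast, was 9.91 and 11.1 FPKM against 13.1 and 15.9 after 24 h, a difference of 0.43 beside 2.13 in untreated cells. Nr1h3 was 11.7 and 16.1 FPKM against 14.4 and 12.2 after 24 h, so its groups overlapped there (adjusted p = 0.878). By list, matrix glycoproteins had 12, 12 and 8 higher calls of 17 at 0, 10 and 24 h, with 0, 0 and 2 lower calls, collagen genes 6, 8 and 6 of 12, fibroblast markers 5, 5 and 5 of 5, and sterol genes 5, 0 and 0 of 23.

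Tests of the change in genotype difference between untreated and IL4-treated cells, which share the 4 untreated libraries, called 10 genes at 10 h (0.0951% of tested genes, 0.0571% upward and 0.0381% downward) and 31 at 24 h (0.295%, 0.0951% upward and 0.2% downward). Of these, 6 and 17 were called in untreated cells. At 24 h they included Timp1 (change of -1.69 ± 0.18, adjusted p = 0.00340), Ctgf (-1.04 ± 0.14, adjusted p = 0.0154), Fn1 (-1.26 ± 0.19, adjusted p = 0.0228) and Tgm2 (-1.12 ± 0.18, adjusted p = 0.0425), each higher in untreated labelled knockout cells. After 24 h of IL4 the difference was 0.43 for Timp1 and 0.41 for Ctgf. It was below 0 for Fn1 (-0.54) and Tgm2 (-0.23). The number of calls at 24 h ranged from 8 to 642 over other scalings and filters, and from 11 to 1169 when 1 library was left out.

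TAM differ from the cultures in tissue and in the use of polyadenylated RNA, and whether both carry the same Tet2 deletion is not given. Of 141 higher genes tested there, 77 (54.6%) were higher in TAM labelled knockout, against 61.9% of all tested genes, and of 66 lower genes 43 (65.2%) were lower, against 38.1%. The share of higher genes lay on either side of that background: it was 27.5% with no filter on low values, 77.4% with 1 FPKM in every library, 41.5% without small RNA genes and 41.1% with only the 4 untreated libraries. Without wild-type replicates 1 and 2 of the untreated cells it was 67.2% and 37.5%, and without labelled knockout replicates 1 and 2 it was 27.8% and 43.8%. The share of lower genes was 39.6% without wild-type replicate 1. In TAM 10 of 9897 genes (0.101%) were called, 0.0505% higher and 0.0505% lower. Of those, 2 were called in the same direction in untreated BMDM, Abi3, an actin regulator (1.15 and 1.17 FPKM in wild type and 2.06 and 2.43 in the labelled knockout, adjusted p = 0.0330), and Clec10a. Neither belongs to the 71-gene core. The Abi3 difference in untreated BMDM was 0.58, and 0.50 to 0.67 with 1 untreated library left out. In TAM Clec10a was 15.9 to 22.8 FPKM in the 4 wild-type and 3.19 to 5.99 FPKM in the 4 labelled knockout libraries, a difference of -1.87 ± 0.18 (adjusted p = 0.0149). Of 28 higher genes of the 71-gene core tested in TAM, 7 lay above the wild type, and of 15 matrix glycoproteins 1 did. The wild-type TAM library numbered 8 stood far apart for matrix genes, with 836 FPKM of Mgp against 45.4 to 77.6 in the other wild-type TAM libraries and 77.2 FPKM of Col1a2 against 3.79 to 6.12. Without it, 9 of 27 core genes and 5 of 15 matrix glycoproteins lay above the wild type, and the difference of Mgp was -0.59 in place of -1.51, that of Col1a2 -0.60 in place of -1.52 and that of Sparc -0.35 in place of -1.25. With each of the other TAM libraries left out, 1 to 4 of 15 matrix glycoproteins did, with the highest count without wild-type replicate 2. Abca9 was 12.98 to 42.0 FPKM in wild-type TAM and 3.77 to 9.66 FPKM in the labelled knockout, so its groups did not overlap there either, with a difference of -1.73 ± 0.38 that did not pass (adjusted p = 0.121).

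Positions were compared by the order of genes in the GRCm38.p6 annotation. Calls were 2.70% of all tested genes, 6.20% of 500 on chromosome 6 (27 higher, 4 lower) and 4.37% of 503 on chromosome 3 (16 higher, 6 lower). They were 0.556% to 3.19% on the other chromosomes except Y, where 4 genes were tested and 0 called. Of 10414 neighbouring pairs of tested genes, 17 had both members called, 15 of them in the same direction. Besides Mgl2 with Clec10a and Fcgr2b with Fcgr4, these included Cd4 with Gpr162 (31.4 and 24.1 FPKM in wild type, 52.0 and 54.3 in the labelled knockout) and F13a1 with Ly86. Eno2, which lies 7 tested genes from Cd4, was 2.08 and 1.48 FPKM against 5.62 and 4.81, a difference of 1.17 (adjusted p = 0.00423), while Tpi1 and Leprel2 between them did not pass. Around Tet2 itself, 27 of the 50 nearest protein-coding genes (25 on each side) were tested and 0 were called, with a smallest adjusted p of 0.167.

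A small part of the calls cannot be read as single genes. Of the 284, 6 were small RNA genes, 15 had numbered models in place of gene names and 2 carried pseudogene names. Rpl31-ps12 was 29.0 and 23.5 FPKM in wild type and listed at 0 in both labelled knockout libraries, and under 0.4 FPKM in every IL4-treated library. Without either wild-type library it was no longer tested. Rpl34-ps1 was 0.014 and 31.0 FPKM in wild type and 135 and 915 in the labelled knockout (adjusted p = 0.0439, and as high as 0.315), while its parent gene Rpl34 was 1000 and 697 against 915 and 94.96 FPKM. Such processed copies share reads with their parent genes, so both are uncertain. Dynlt1a, Dynlt1b and Dynlt1c, tandem copies of a dynein light chain, were each higher (differences of 0.78, 0.89 and 0.69) and cannot be counted as separate genes either.

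**Figure D5:**
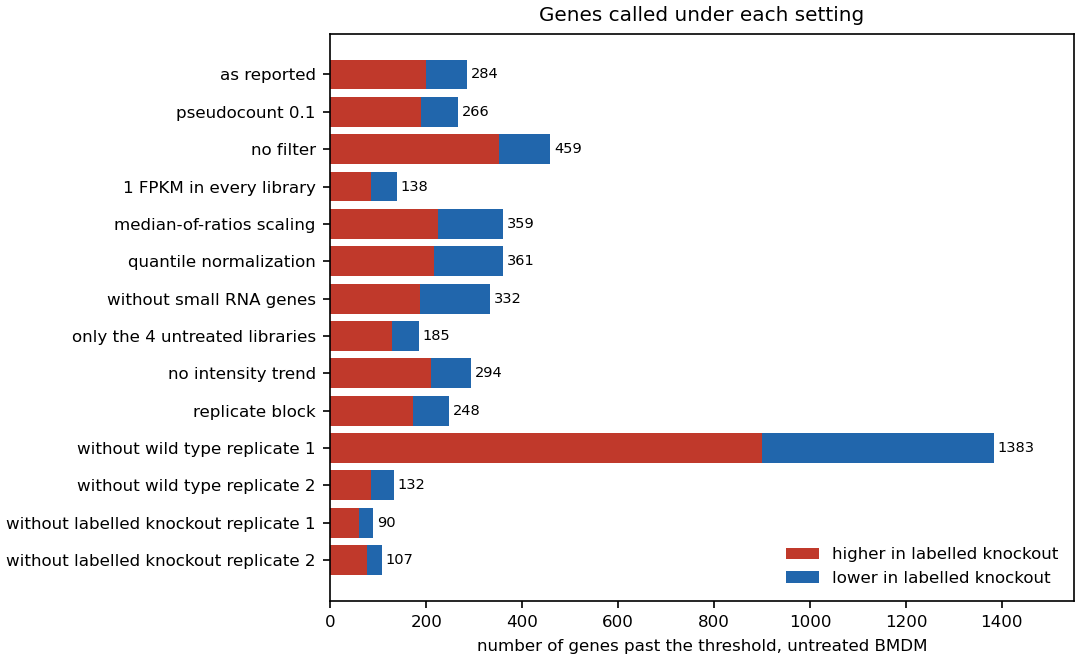
Number of genes past the threshold in untreated BMDM as reported and under each other setting, with higher genes in red and lower genes in blue. The count is 284 as reported, 1383 without wild-type replicate 1 and 90 to 132 without each of the other 3 untreated libraries.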

How the data were processed

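RNA of untreated BMDM was sequenced after ribosomal RNA depletion, per the labels' protocols. FPKM values per gene were deposited by the authors in 1 table for BMDM, and the submitters' processing notes name TopHat, Cuffdiff and the build mm9. The unit of the TAM values is not named; they are taken as FPKM because the notes name Cuffdiff, the gene rows match those of the BMDM table and the library totals are unequal. Read counts behind the FPKM are not used here, so no counting interval is given. Genes with at least 1 FPKM in at least 2 of 12 BMDM libraries (4 of 8 for TAM) were tested on log2(FPKM + 1) with limma 3.58.1 in R 4.3.3, with 6 groups and an intensity trend, and p-values were adjusted over all tested genes by the Benjamini-Hochberg method at 0.05. The scripts were checked on simulated data. P-values in BMDM rest on a spread within groups that was pooled over all 6 groups of 2 libraries, untreated and IL4-treated, and moderated across genes. They do not measure the spread of the 4 untreated libraries alone. Named genes are the 15 highest and 15 lowest differences among calls whose groups did not overlap, leaving out number-only models and small RNA genes, every list member past the threshold, the 3 Tet genes, and up to 4 more members of each list, taken by smallest p. Gpr162, Ly86, Eno2, Tpi1, Leprel2, Cald1, Cdh11, Tpm1, the Dynlt1 genes, Rpl34, Abi3 and members of lists chosen for their known roles were named after their values were seen. The gene lists and the comparison itself were chosen with earlier results of these data known. Gene symbols were matched to RefSeq (GRCm38.p6) for 23131 models, and 176 were not matched. Promoters were read from RefSeq, and mm9 coordinates were not used. A few genes that the naming rule gives are not reported here. Alternatives were other pseudocounts, filters, scalings and models, and leaving out each library.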

Additional observations from a re-analysis of the deposited data

Results flagged for a closer look

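The genotype difference changed between untreated and IL4-treated BMDM for several named genes, by a test of the change itself in limma. The test shares the 4 untreated libraries between times. At 10 h the change was 1.13 for Irg1, the itaconate-producing enzyme, which was not called in untreated cells, and 4.69 for Rpl31-ps12. At 24 h the change was -1.69 for Timp1, -1.26 for Fn1, -1.22 for Ccl8, -1.18 for Igfbp7, -1.12 for Tgm2, -1.04 for Ctgf, -0.92 for Cyr61, -0.80 for Fbln2 and -0.78 for Cd4, all of them higher in untreated labelled knockout cells. For Rpl31-ps12 it was 4.56 at 24 h, since the wild-type level of this pseudogene was close to 0 in IL4-treated cells.

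In TAM, 1 labelled knockout library had 17.3 FPKM of Abi3 and the other 3 had 14.8 to 14.9 FPKM, so its gap to the others was large for a group of 4. Chance marks about 1 in 20 groups this way.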

How the results depend on the processing

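The 284 calls became 459 with no filter on low values (351 higher), 138 with 1 FPKM required in every library (84 higher, 54 lower) and 185 with only the 4 untreated libraries (128 higher). Lower calls numbered 134 after median-of-ratios scaling, 144 after quantile normalization and 146 without small RNA genes. Leaving out 1 library gave 90 to 1383 calls, 59 to 899 higher and 30 to 484 lower. Tet2 ranged from -0.40 to 0.039 and passed without wild-type replicate 1, as above. Calls among list members fell to 34 with 1 FPKM in every library and ranged from 32 to 134 with 1 library left out. Changes with IL4 numbered 31 (no filter) and 2 (1 FPKM in every library) at 10 h, with 2 to 59 when 1 library was left out. At 24 h they numbered 17 with a pseudocount of 0.1, 96 with no filter, 8 with 1 FPKM in every library, 134 after median-of-ratios scaling, 115 after quantile normalization and 642 without small RNA genes, with 11 to 1169 when 1 library was left out. The shares of same direction at 10 h were 86.3% of higher and 75.0% of lower genes with no filter, and 100% of lower genes with 1 FPKM in every library, with 78.9% to 98.3% and 70.7% to 96.8% when 1 library was left out. At 24 h they were 80.6% and 70.4% with no filter and 91.4% and 79.5% without small RNA genes, with 66.3% to 93.2% and 28.5% to 93.8% when 1 library was left out. In TAM the share of higher genes was 27.5% with no filter, 77.4% with 1 FPKM in every library, 41.5% without small RNA genes and 41.1% with only the 4 untreated libraries, with 27.8% to 67.2%, and 39.6% to 72.7% for lower genes, when 1 library was left out. The cause was not tested. Leaving out IL4-treated or TAM libraries was chosen after seeing the data. No value reversed its direction in a call. With the replicate number as a block there were 248 calls, of which 239 were among the 284. The correlation of same-numbered deviations between genotypes was 0.0724 at 0 h, 0.112 at 10 h and -0.141 at 24 h. Weak values of this kind cannot show whether same-numbered libraries share a batch. Whether libraries of the same number at different times came from the same mice was not tested. Depth behind these FPKM is unknown, and genes near 1 FPKM are the least certain.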

Other observations

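Genes of serine synthesis and one-carbon metabolism, which lie in none of the lists and were chosen after their values were seen, were among the higher calls. Phgdh, the first enzyme of serine synthesis, was 0.96 and 1.12 FPKM in wild type and 3.08 and 2.71 in the labelled knockout, a difference of 0.93, and belongs to the 71-gene core. Psat1, the next enzyme, had a difference of 0.62, Mthfd2, a mitochondrial folate enzyme, 0.41, and Aldh1l1, a cytosolic folate enzyme, 0.79. Mcoln3, an endolysosomal cation channel, was 3.74 and 3.44 FPKM against 10.8 and 10.5 FPKM, a difference of 1.35, and also belongs to the core. Among lower genes of the core, Rbpj, the DNA-binding factor of Notch signalling, had a difference of -0.76.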
